A study of Homo sapiens with 6 samples.

Results

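The 661 reverse transcription (RT) stops described here lie at G in the 3′ untranslated regions (UTRs) of 206 mRNAs, each at the end of a stretch of 45 nt that holds 4 blocks of 3 G. The blocks lay in at least 4 separate runs in all but 40 members, where a long run holds more than 1 block. They were chosen from the stop counts of human U2OS cells, an osteosarcoma line of mesenchymal character, by the relative stop frequency E, which is the stop count at a nucleotide divided by the mean listed count per nucleotide of its transcript. A member had an E of at least 10 in 1 library made without dimethyl sulfate (DMS), an E at least 2-fold that of the other library without DMS, and a match, written GGGN1-7GGGN1-7GGGN1-7GGG on the mRNA strand, with loops of 1 to 7 nt that may themselves hold G. Stops within 30 nt of each other were merged, which gave 245 regions. The members were 661 of 5431 G stops with an E of at least 10, 661 of 11540 such strong stops at any base, and 661 of 4204139 nucleotides listed in that library.

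The study prepared 6 libraries from poly(A)-selected U2OS RNA, 1 for each condition, and there was no replicate. RNA without DMS was reverse transcribed in 150 mM Na+ or in 150 mM K+. Poly(A)+ RNA was also refolded and treated with DMS in vitro in 150 mM K+ or 150 mM Li+, and DMS was added to living cells, either unstressed or starved for 2 h in a balanced salt solution, at 8% for 5 min. RT of the 4 DMS libraries was in 150 mM K+. All 6 libraries came from the same line, and the number of cultures behind each was not given. The labels of the 2 libraries without DMS go against the names of their files: the file of the library labelled Na+ is named for K+, and the reverse. The study also names both Na+ and Li+ as the partner of K+ in RT. The members are strong in the library labelled Na+ and weak in the library labelled K+, and both are called by their labels below. With the library labelled K+ used in place of the other, the same rule found 5 members. Which cation goes with the strong stops without DMS cannot be told from the labels and file names.

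An RNA G-quadruplex (rG4) is a stack of planar quartets of G, held together by Hoogsteen bonds and by a monovalent cation that sits between the quartets. K+ favours the fold, Na+ less so and Li+ hardly at all, and a folded rG4 blocks reverse transcriptase at its 3′ edge. DMS methylates the N7 of a G that is not in a quartet, after which that G can no longer join one. When RT is then run in K+, a stretch that was folded during DMS treatment can refold and stop RT, and a stretch that was open gives a weaker stop. DMS also marks A and C, which stop RT at those bases.

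The sequences that ended at the stop are shown for 7 members, since the runs and loops are what these stops share. They are 3 genes the study followed up, 2 with a large difference in vitro (ACTN4 and TNPO1) and 2 with many stops in cells (EEF2 and HNRNPK). Each line gives the 30 nt of mRNA that end at the stop, from GENCODE release 44 lifted to GRCh37 (hg19), with T for U, and capitals mark runs of 3 or more G.
APP, chr21:27253245-27253274, minus strand: taagcacttttacGGGGcGGGtGGGGaGGG
APH1A, chr1:150237904-150237933, minus strand: agtttttaattGGGGtgtGGGaGGGGcGGG
CDKN1B, chr12:12874245-12874274, plus strand: taaactttGGGGaaGGGaGGGcaGGGtGGG
HNRNPK, chr9:86584091-86584120, minus strand: ccttacaaacaGGGttGGGGGGGGGaaGGG
EEF2, chr19:3976289-3976318, minus strand: ggccggtcGGGGaGGGGGaggcGGGatGGG
ACTN4, chr19:39220171-39220200, plus strand: ctctgcagtcctccGGGGtGGGtGGGtGGG
TNPO1, chr5:72205189-72205218, plus strand: ttttaccttttttGGGGtGGGcaGGGaGGG
All 7 end at the last G of the motif, which was not so for most members. In each of them the motif lies within the 30 nt shown. HNRNPK is one of the 40 with fewer than 4 separate runs.

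Short loops were common among the members, and nearly as common among 5′ UTR stops that met the rest of the rule. The shortest total loop length that satisfied the motif had a median of 7 nt (quartiles 6 and 10, range 3 to 18), and it was 3 to 6 nt in 252 of 661 stops (38.1%), 7 to 10 nt in 270 (40.8%) and 11 nt or more in 139 (21%). At least 1 loop of a single nucleotide occurred in 471 (71.3%), and all loops were of 1 nt in 33 (4.99%). Of the 64 such stops in the 5′ UTR, 35.9% had total loops of 3 to 6 nt and 67.2% a loop of 1 nt. Of 78 in the coding sequence, the shares were 3.85 and 46.2%. Runs were often longer than the rule asked for: the longest run in the 45 nt had a median of 5 G (range 3 to 14), it reached at least 4 G in 632 stops (95.6%), and 330 stops (49.9%) had 5 or more runs. As a background, 3425 of 747283 windows of 45 nt that end at a G in the 3′ UTRs of the transcripts tested held the motif (0.458%), searched on the mRNA strand only.

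Most stops sat at or next to the 3′ edge of the G run that held them. The last G of the motif was the stop itself in 266 of 661 (40.2%) and lay within 5 nt of it in 473 (71.6%). The rule searched only the 45 nt that end at the stop, so the motif could not end beyond it. The motif also ended at the stop in 48.7% of 78 coding-sequence stops and 48.4% of 64 5′ UTR stops with runs of 3 G. Of all members, 362 (54.8%) were at the last G of their own run, 209 (31.6%) 1 nt before it and 73 (11%) 2 nt before it. Of the strongest stops of the 245 regions, 146 (59.6%) were at the last G. The base after the stop was G in 45.2%, A in 24.4%, C in 15.7% and U in 14.5%. A region held a median of 2 stops (range 1 to 8), and 74 regions (30.2%) held 1.

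**Figure D1:**
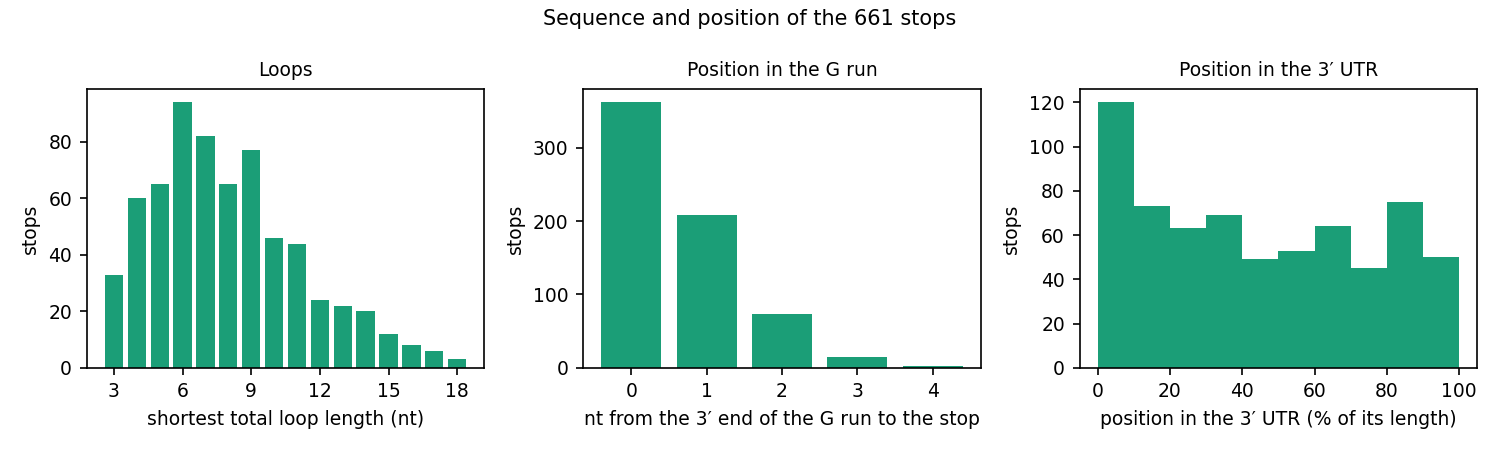
Numbers of the 661 stops by the shortest total loop length in nt (left), by the distance in nt from the stop to the 3′ end of its G run (middle), and by the position of the stop as a percentage of the 3′ UTR length (right). Loop lengths centre on a median of 7 nt, 362 stops are at the last G of their run, and the stops spread over the whole 3′ UTR.

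All 661 members were in the last exon of the matched transcript. They began 24 nt after the stop codon and reached 4755 nt from it, with a median of 373 nt. Split into 5 equal parts of the 3′ UTR from its 5′ end, the shares of members were 29.2, 20.0, 15.4, 16.5 and 18.9%, beside 25.8, 20.7, 18.2, 18.0 and 17.3% of the 125596 nucleotides listed in the same UTRs. The 3′ UTRs that carried a member were longer than those of the other 2380 transcripts tested, with medians of 1232.5 and 768 nt. The motif occurred in the 3′ UTR of 281 of 2586 transcripts with an annotated coding sequence (10.9%), and 206 of these 281 (73.3%, exact Clopper-Pearson 95% interval 67.7 to 78.4%) held a member. Most of the 206 genes, 175 (85.0%), had 1 region.

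The libraries differed in depth and in the bases at which RT stopped. The listed stops, at least 3 at a nucleotide, summed to 33507714 in the library labelled Na+ and 35371061 in the one labelled K+. They were 21480565 for RNA refolded in K+ and 31174408 for RNA refolded in Li+, and the unstressed and starved cells gave 12999691 and 24014417. Stops at A or C made up 51.1 and 52.4% without DMS, 83.9 and 83.2% in vitro, 88.4% in unstressed cells and 78.2% in starved cells. The 206 transcripts with a member took at most 6.93% of all listed stops in a library and at least 6.2%, except in starved cells, where they took 2.76%, and 103 of them had at least 1 listed stop per nucleotide in unstressed cells but 61 in starved cells. These were 50.0 and 29.6% of the 206, whereas the shares of the 2442 other transcripts went the opposite way, from 48.5 to 65.1%. Of 6 mesenchymal markers 5 passed that minimum in both libraries without DMS, with VIM at 55.5 listed stops per nucleotide in the library labelled Na+, and none of 3 epithelial and 3 blood markers did. All intervals given here cover counting error or the variation between members and say nothing of variation between cultures, and members of 1 region or mRNA are not independent.

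Without DMS, the members differed strongly between the libraries, as the rule required, and these values are a description. Being both strong and 2-fold was met by 0.561% of the 647533 listed G and by 66.9% of the 5431 strong G stops. E in the library labelled Na+ had a median of 34.7 (quartiles 19.5 and 73.2, range 10.0 to 626), behind which stood a median of 100 counts. In the library labelled K+ the median E was 2.04, and 196 members (29.7%) were not listed there. Over the 465 listed in both, the fold of E had a median of 13.3 (quartiles 6.89 and 27.2). Just inside the threshold on E were stops of FADS2 (10.04) and PIM3 (10.05), and just outside it HMGCS1 (9.98) and HNRNPUL1 (9.97). Just inside the 2-fold threshold were ERF (2.13) and DLST (2.15), and just outside it PEA15 (1.98) and PFDN6 (1.93). In all, 16 other 3′ UTR stops with the motif and an E of at least 10 were under 2-fold.

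The strongest stops were in mRNAs of varied function. SLC7A5, an amino acid transporter, had the highest E: its stop had 981 counts in the library labelled Na+ and 10 in that labelled K+, 71 after refolding in K+ and 19 after refolding in Li+, 12 in unstressed cells and 38 in starved cells. The nuclear scaffold protein AHNAK had 1103 and 16 counts without DMS, 140 and 63 in vitro, and 30 and 61 in cells. FLNA, which crosslinks actin, had 3840 and 73 counts without DMS, 163 and 124 in vitro, and 55 and 64 in cells. In each of these the count in the library labelled Na+ stood far above all others. Among the DMS libraries the count was highest in vitro in K+, but E was highest in starved cells, at 239 for SLC7A5, 242 for AHNAK and 177 for FLNA, beside 81.2, 131 and 28.3 in vitro in K+. These transcripts had 0.159, 0.252 and 0.361 listed stops per nucleotide in starved cells, under the minimum of 1. E in the library labelled Na+ was 626 for SLC7A5, 604 for AHNAK and 416 for FLNA. The lysosomal protease CTSZ (424), the RNA-binding protein TAF15 (469), the importin TNPO1 (414), the nuclear envelope phosphatase CTDNEP1 (404) and the PDZ and LIM domain protein PDLIM2 (402) completed the 8 highest.

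**Figure D2:**
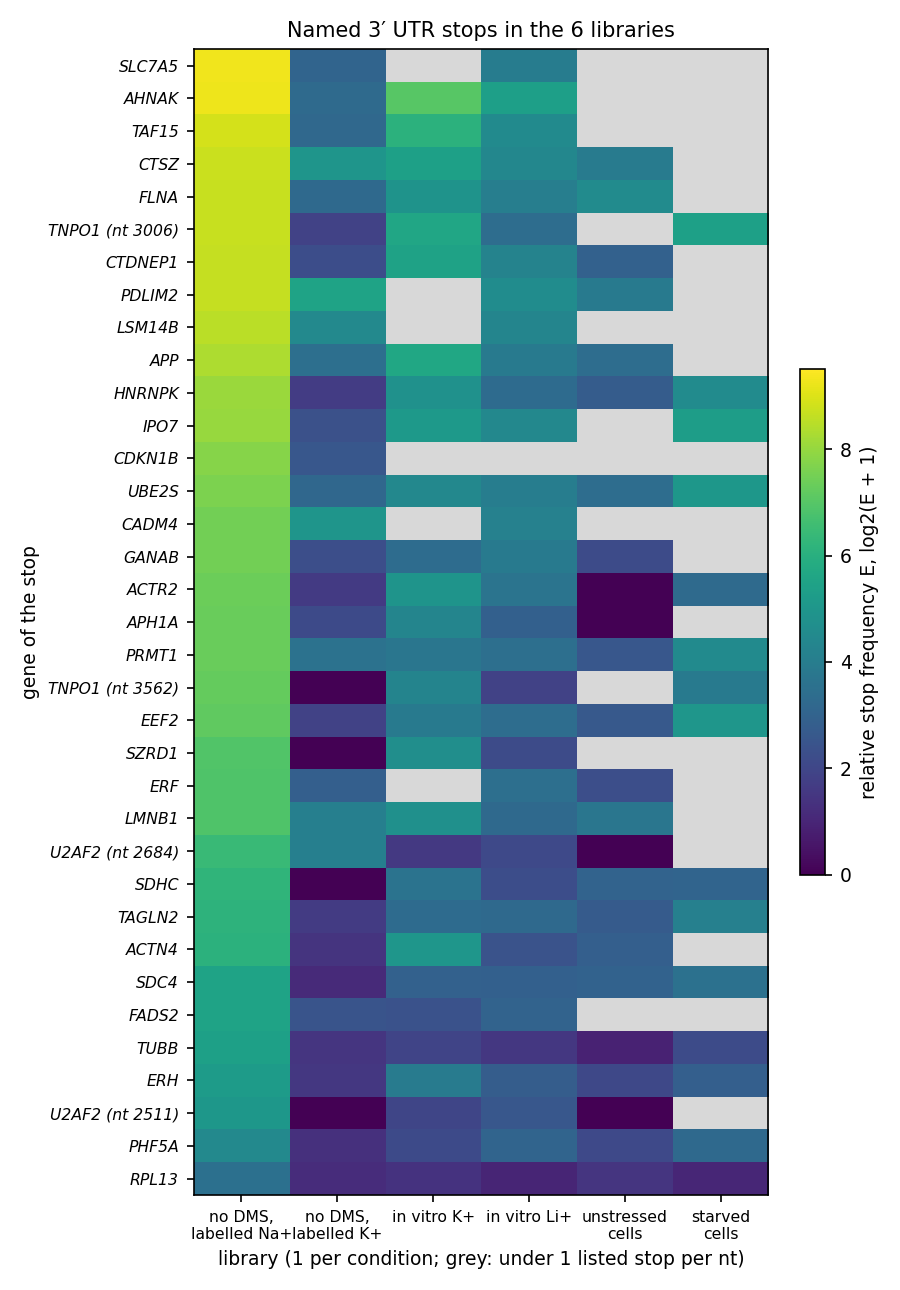
Relative stop frequency E, as log2(E + 1), of the named stops (rows) in the 6 libraries (columns), from dark blue (low) to yellow (high). In every row the library labelled Na+ has the highest value, and SLC7A5 has the highest E of all, 626.

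The profile around each region was centred on its strongest stop in the library labelled Na+. The peak of that library there, and its excess over the library labelled K+, were set by the choice of stops. Over all 245 regions the median E in the library labelled Na+ was 20.0 at 1 nt upstream, 79.6 at the stop and 6.45 at 1 nt downstream, against 1.16, 2.46 and 1.39 in the library labelled K+. Upstream of the stop, from -40 to -20 nt, mean log2(E + 1) was 0.0938 in the library labelled Na+ and 0.330 in that labelled K+, whereas from 10 to 30 nt downstream it was 0.655 and 0.624. RT reads from the 3′ side, so the upstream bases are those reached after the stop. In vitro the same side was lower in K+ (0.139) than in Li+ (0.220), over 168 regions, with 0.582 and 0.587 downstream.

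**Figure D3:**
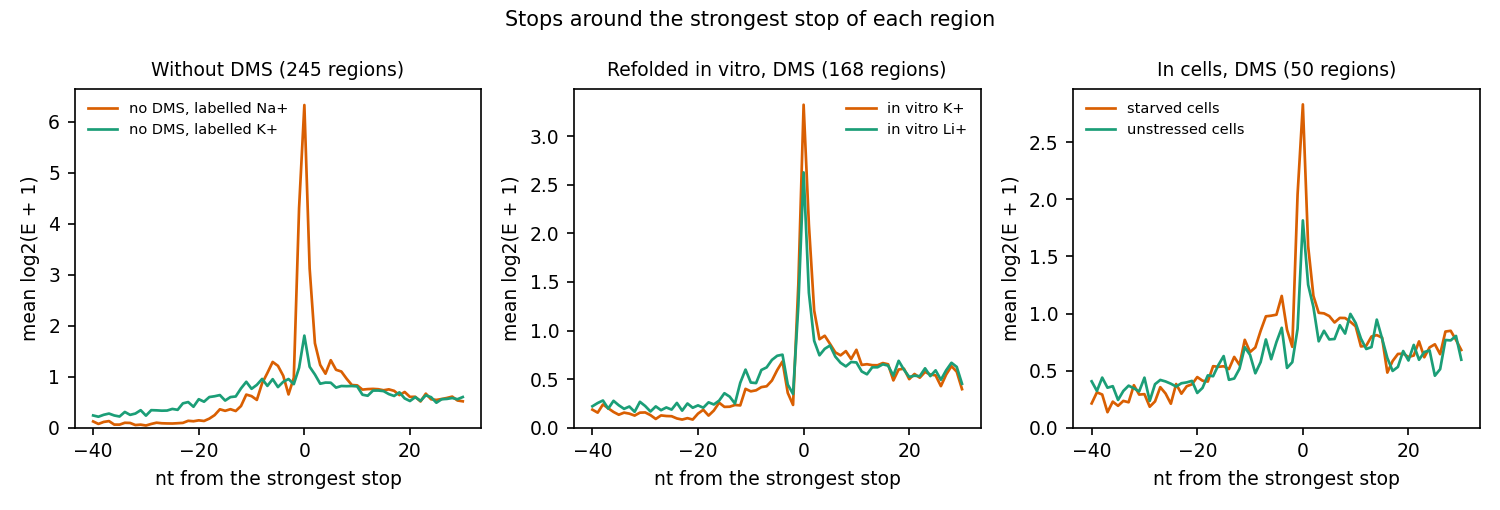
Mean log2(E + 1) against the distance in nt from the strongest stop of each region, without DMS (245 regions), in vitro (168 regions) and in cells (50 regions on transcripts past the minimum in all 6 libraries). The highest point is at 0 in each library, and it is higher in the library labelled Na+, in vitro K+ and starved cells than in the library each is paired with. In the library labelled Na+ the peak, and its excess over the library labelled K+, follow from the choice of stops.

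Refolding in K+ rather than Li+ before DMS gave stronger stops at most members, with a larger median change than over all strong G stops (0.07). Compared were the 443 members on the 146 transcripts with at least 1 listed stop per nucleotide in both in vitro libraries, with the change taken as log2((E in K+ + 1)/(E in Li+ + 1)). The median change was 0.41 (order-statistic 95% interval 0.31 to 0.50, range -2.87 to 3.15), and 310 members (70.0%) were above 0. So were 51.9% of 703 3′ UTR stops that met the rule only with runs of 2 G. Of stops with runs of 3 G elsewhere, 69.7% of 33 in the 5′ UTR and 50.0% of 50 in the coding sequence were above 0. At least 2-fold higher in K+ were 99 of 443 (22.3%, 18.6 to 26.5%), beside 9.19% of all 5996 strong stops and 14.0% of 3132 strong G stops, and at least 2-fold lower were 28 (6.32%), beside 8.12% and 10.3% of these. Over the 379 listed in both libraries the fold of E had a median of 1.47 (quartiles 1.02 and 2.17). With 1 library per condition no test between K+ and Li+ was possible.

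Strong G stops under 2-fold without DMS and 3′ UTR stops with runs of 2 G had medians near 0 in vitro, and the few stops with the same motif elsewhere in the mRNA gave wide intervals. Strong G stops that were under 2-fold between the libraries without DMS had a median change of 0.04 (0.00 to 0.07), and 5.19% of 944 were at least 2-fold higher in K+ and 5.93% at least 2-fold lower. The 3′ UTR stops that met the rule only with runs of 2 G had a median of 0.07 (0.00 to 0.14), with 15.5% of 703 at least 2-fold higher and 15.4% at least 2-fold lower. The median intervals of these 2 classes lay below that of the members. Stops that met the rule with runs of 3 G in the 5′ UTR had a median of 0.54 (0.05 to 0.79), with 18.2% of 33 at least 2-fold higher and 9.09% at least 2-fold lower. Those in the coding sequence had a median of 0.00 (0.00 to 0.98), with 15 of 50 (30%) at least 2-fold higher and 16.0% at least 2-fold lower. Both intervals overlapped that of the members, so no difference by position in the mRNA was shown. Over stops listed in both in vitro libraries, where unlisted stops do not enter as 0, the median fold of E was 1.47 for the 379 members, 1.35 for 457 stops with runs of 2 G, 1.05 for 874 strong G stops under 2-fold without DMS, 1.87 for 25 stops in the 5′ UTR and 2.21 for 25 in the coding sequence. On this basis the members were close to the stops with runs of 2 G and below both classes with the same motif elsewhere.

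Within a region the strongest stop carried the larger difference. The strongest stops had a median change of 0.63, and 62 of 168 (36.9%, 29.6 to 44.7%) were at least 2-fold higher in K+. The other stops of the regions had a median of 0.25, and 37 of 275 (13.5%, 9.65 to 18.1%) were. The strongest stop was taken from the library labelled Na+, which is not part of the in vitro pair. Median E in that library was 79.6 for the strongest stops and 24.7 for the others. The 1 added to E understates the change of weak stops, and how far this set the groups apart was not tested.

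The study followed up the 3′ UTR rG4s of APP, the amyloid precursor protein, APH1A, a subunit of the gamma-secretase that cleaves it, LMNB1, a protein of the nuclear lamina, CDKN1B, a cyclin-dependent kinase inhibitor, and HIRA, a histone chaperone. The APP stop, in exon 18 of 18 and 736 nt after the stop codon, had 2194 and 64 counts in the libraries labelled Na+ and K+, 199 after refolding in K+ and 76 after refolding in Li+, 21 in unstressed cells and 123 in starved cells. Its fold of E for K+ over Li+ was 3.58 (exact conditional binomial 95% interval 2.73 to 4.72). The APH1A stop, in exon 7 of 7, had 468 and 8 counts without DMS, 27 and 14 in vitro, none listed in unstressed cells and 19 in starved cells. Its fold for K+ over Li+ was 2.86 (1.45 to 5.89). Both intervals were above 1, as was that of LMNB1, in exon 11 of 11, at 3.11 (2.02 to 4.88).

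The LMNB1 region held 5 members. Its strongest stop had 551 and 75 counts in the libraries labelled Na+ and K+, 70 after refolding in K+ and 32 after refolding in Li+, 13 in unstressed cells and 42 in starved cells. With an E of 16.1 in the library labelled K+ it was among the members less fully lost there. The CDKN1B stop, in exon 3 of 3, had 253 and 6 counts without DMS, 11 and 8 in vitro, none listed in unstressed cells and 10 in starved cells, and its transcript was under the minimum in vitro and in cells. The fold of this stop for K+ over Li+ was 2.01 (0.737 to 5.76), an interval that held 1. Against a floor of 3 counts in unstressed cells, it was at least 1.04-fold higher in starved cells. HIRA was below the minimum in both libraries without DMS, at 0.590 and 0.560 listed stops per nucleotide, and could not hold a member. The other genes of these pathways were counted from lists: of 10 genes of APP and the gamma-secretase, 4 passed the minimum, and the 2 with the motif in the 3′ UTR, APP and APH1A, both held a member.

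The nuclear lamina list had a member in 4 of 7 transcripts past the minimum, and these were the 4 with the motif: LMNA, LMNB1, LMNB2 and EMD. The strongest stops of LMNA and LMNB2, which encode the other lamins, had few counts in vitro. The LMNA stop had 5 counts in vitro in K+ and 10 in Li+, a fold of 0.732 (0.196 to 2.35), and the strongest LMNB2 stop had 4 and 8, a fold of 0.751 (0.165 to 2.81). Among 11 genes of the G1 phase of the cell cycle, 7 passed the minimum and the 3 with the motif, CDKN1B and the cyclins CCND1 and CCND2, all held a member. Of 24 rG4 helicases and rG4-binding proteins, 21 passed, 3 had the motif and 2, DDX17 and TAF15, held a member, while HNRNPA1 had the motif and none. None of 3 histone chaperone transcripts past the minimum, of 10 in the list, had the motif. Over the 2586 transcripts the motif was in 10.9% and a member in 7.97%, and 73.3% of those with the motif held a member.

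Among the strongest stops of regions with at least 20 counts in the in vitro libraries, differences were seen in both directions. The stop of ACTN4, an actin crosslinker, had 68 counts in K+ and 14 in Li+, a fold of 6.91 (3.85 to 13.3). In SZRD1 it was 26 and 5 counts and a fold of 7.16 (2.71 to 23.9), and in the distal region of TNPO1 25 and 5 counts and a fold of 7.04 (2.65 to 23.5). All of these lay above the upper quartile of members. At the other end PHF5A, a splicing factor subunit, had 10 counts in K+ and 29 in Li+, a fold of 0.470 (0.204 to 0.992). FADS2, a fatty acid desaturase, and the stop at nt 2511 of U2AF2 had 6 and 14 counts each, with folds of 0.602 (0.190 to 1.67) and 0.593 (0.187 to 1.64). GANAB, a glucosidase of the endoplasmic reticulum, had 22 and 46 counts and a fold of 0.652 (0.373 to 1.11). Over the 379 members listed in both, the counting interval lay above 1 in 97 and below 1 in 4. The same was not counted for other classes of stops, so whether it is particular to the members was not tested.

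By the shape of the motif, the median change in vitro was lowest with total loops of 11 nt or more and with runs of 5 G or more, but the intervals do not separate the classes. Its median was 0.42 (0.28 to 0.58) for total loops of 3 to 6 nt, 0.43 (0.35 to 0.58) for 7 to 10 nt and 0.22 (0.02 to 0.42) for 11 nt or more, and 23.6% of 182, 24.2% of 178 and 15.7% of 83 members were at least 2-fold higher in K+. By longest run it was 0.67 (0.36 to 1.17, n = 20) for 3 G, 0.46 (0.20 to 0.61, n = 155) for 4 G and 0.37 (0.26 to 0.46, n = 268) for 5 or more. At least 2-fold higher in K+ were 7 of 20 (15.4 to 59.2%), 41 of 155 (19.7 to 34.1%) and 51 of 268 (14.5 to 24.2%) in the same order. Intervals of the medians overlapped in both series. With 4 runs the median was 0.41 and with 5 or more 0.38. Median E in the library labelled Na+ was 35.7, 33.9 and 35.0 in the 3 loop classes.

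In cells the members had stronger relative stops after starvation than before, and so, in the median, did strong G stops as a whole (0.82). Compared were 143 members in 53 regions on the 47 transcripts with at least 1 listed stop per nucleotide in both cell libraries. The median of log2((E starved + 1)/(E unstressed + 1)) was 1.26 (1.07 to 1.48, range -2.16 to 3.98), and 120 members (83.9%) were above 0. So were 80.0% of 250 3′ UTR stops with runs of 2 G only. Of stops with runs of 3 G elsewhere, 56.25% of 16 in the 5′ UTR and 45.5% of 11 in the coding sequence were above 0. At least 2-fold higher in starved cells were 87 of 143 (60.8%, 52.3 to 68.9%), beside 28.7% of all 3164 strong stops and 42.0% of 1407 strong G stops, and 6 (4.20%) were at least 2-fold lower, beside 2.43% and 2.42% of these. Of the 143, 92 were listed in both libraries, 38 in starved cells only, 6 in unstressed cells only and 7 in neither. The pools of cells do not tell a change in all cells from a larger change in some.

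In this comparison the members' values were close to those of the other cation-sensitive 3′ UTR stops. The 3′ UTR stops with runs of 2 G only had a median of 1.25 (1.11 to 1.40), with 58.4% of 250 (52.0 to 64.6%) at least 2-fold higher and 3.2% at least 2-fold lower, and both intervals held the members' values of 1.26 and 60.8%. Strong G stops that were under 2-fold between the libraries without DMS had a median of 0.78 (0.71 to 0.84), with 37.5% of 595 at least 2-fold higher and 0.336% at least 2-fold lower. Stops with runs of 3 G elsewhere in the mRNA were few. Those in the 5′ UTR had a median of 0.21 (0.00 to 1.18), with 25.0% of 16 at least 2-fold higher and 0.0% at least 2-fold lower. Those in the coding sequence had a median of 0.00 (-0.56 to 1.35), with 36.4% of 11 at least 2-fold higher and 9.09% at least 2-fold lower. Within the members, 60.4% of the strongest stops and 61.1% of the others were at least 2-fold higher in starved cells, and the median changed little with loops, at 1.19, 1.29 and 1.07 in the 3 classes from short to long. The difference in vitro and that in cells did not follow each other (Spearman's rho 0.07, n = 138).

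The share of stops at A and C moved with this comparison. On all 47 transcripts it was lower after starvation than before, with medians of 74.9 and 87.5% in that order, and the share at G and U was correspondingly higher. With E taken relative to G and U stops alone, the members' median was 0.74 and 56 of 143 (39.2%, 31.1 to 47.7%) were at least 2-fold higher, against 46.8% of the stops with runs of 2 G and 17.1% of the strong G stops under 2-fold without DMS. With the libraries scaled to strong G stops under 1.5-fold apart without DMS, an alternative chosen after seeing the data, the values were 0.70 and 37.1%. Around the members, A and C stops in the 45 nt that end at the stop had a median log2 ratio of starved to unstressed of -0.44 over 53 regions, and those in the next 30 nt -0.17. How much of the difference at the members comes from fewer A and C stops or from the smaller share of these mRNAs in the starved library was not tested beyond these values.

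**Figure D4:**
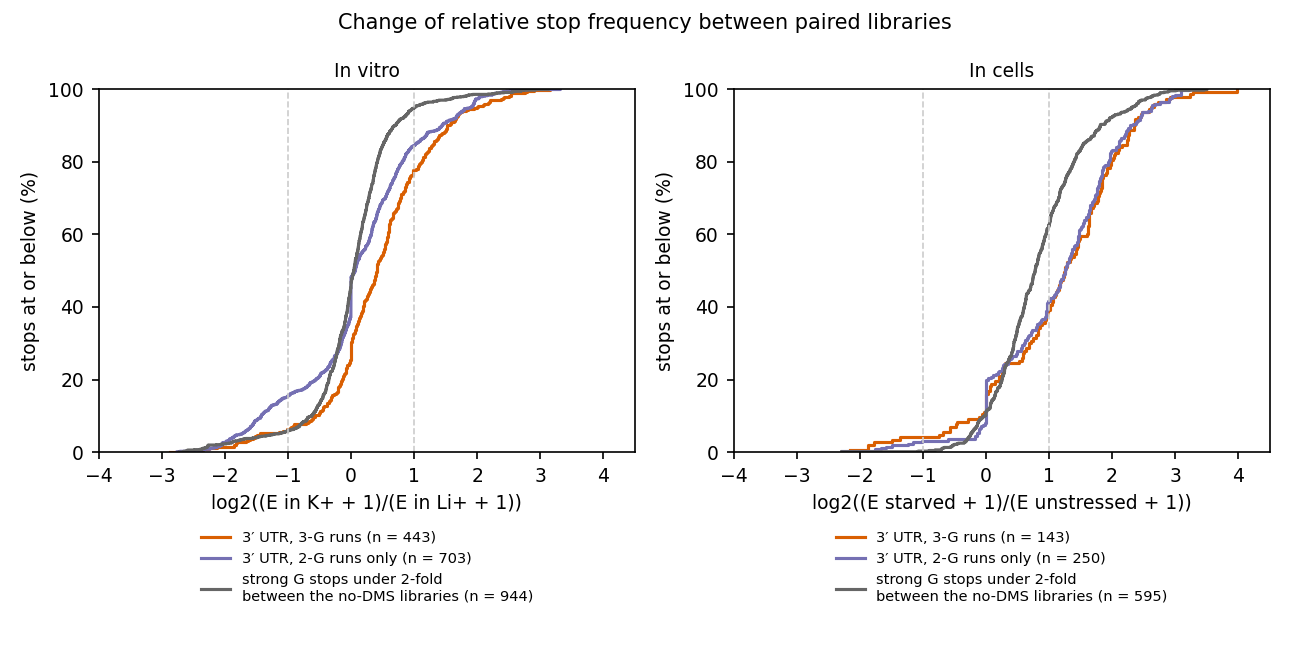
Cumulative percentage of stops at or below each change of E on the log2(E + 1) scale, in vitro (left) and in cells (right), for the members, 3′ UTR stops with runs of 2 G only, and strong G stops under 2-fold without DMS. In vitro the members lie to the right of both other classes (median 0.41 against 0.07 and 0.04). In cells the members and the stops with runs of 2 G lie together (1.26 and 1.25), to the right of the third class (0.78).

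Members with many counts showed the difference in cells singly. EEF2, the translation elongation factor, had 3942 and 66 counts without DMS, 237 after refolding in K+ and 220 in Li+, 46 in unstressed cells and 214 in starved cells. Its fold of E was 1.45 (1.20 to 1.75) for K+ over Li+ and 5.85 (4.24 to 8.23) for starved over unstressed cells. HNRNPK, an RNA-binding protein, had 4245 and 32 counts without DMS, 253 and 109 in vitro, and 27 and 127 in cells, with folds of 3.07 (2.44 to 3.88) in vitro and 4.00 (2.62 to 6.30) in cells. EEF2 thus had the larger fold in cells and HNRNPK the larger in vitro. UBE2S, a ubiquitin-conjugating enzyme with the most counts of all members in the library labelled Na+ (4918), had 98 and 139 counts in cells and a fold of 3.27 (2.51 to 4.28). TAGLN2 and TUBB, both of the cytoskeleton, had folds in cells of 2.99 (2.30 to 3.90) and 4.08 (2.68 to 6.40).

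Over the 92 members listed in both cell libraries, the counting interval of the fold lay above 1 in 46 and below 1 in 1, the stop at nt 927 of SDHC, with 12 and 3 counts and a fold of 0.150 (0.0272 to 0.556). Such intervals were not counted for other strong G stops, which also rose in the median, so these counts do not set the members apart. Among the named strongest stops with at least 20 counts in cells, the lowest changes were in RPL13 and SDHC. The RPL13 stop had 13 and 9 counts and a fold of 0.564 (0.213 to 1.43). The stop at nt 942 of SDHC had 8 and 14 counts and a fold of 1.05 (0.411 to 2.89), and both intervals held 1. ACTR2, of the Arp2/3 complex, was not listed in unstressed cells and had 21 counts in starved cells, which against a floor of 3 counts in the unstressed library is at least 3.02-fold higher. This stop passed the limit of 20 counts only through the starved library.

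APP, APH1A and LMNB1 were under the minimum of 1 listed stop per nucleotide in starved cells, at 0.989, 0.694 and 0.969, and were not among the 143. For APP, E was 9.47 before and 124 after starvation, a fold of 13.1 (8.23 to 22.0), and with the transcript mean rebuilt to include stops that were not listed, 8.11 and 94.3. LMNB1 had a fold of 3.50 (1.84 to 7.11). APH1A was at least 12.3-fold higher against a floor of 3 counts in unstressed cells. The minimum keeps these stops out of the counts in cells, but not out of those in vitro, and a low mean makes E high when few nucleotides are listed.

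Set beside the in vitro libraries, unstressed cells lay below Li+ and starved cells above it, as they did for strong G stops of other kinds. On transcripts past the minimum in all 6 libraries were 138 members, with median E of 4.38 in vitro in K+, 3.49 in vitro in Li+, 2.15 in unstressed cells and 4.86 in starved cells. E was lower in unstressed cells than in Li+ in 115 of 138 (83.3%), beside 69.5% of 236 stops with runs of 2 G and 75.7% of 571 strong G stops under 2-fold without DMS. It was higher in starved cells than in Li+ in 102 (73.9%), beside 78.0% and 73.6% of these. The unstressed library was the lowest of the 4 DMS libraries in 95 (68.8%). This share is not given for other strong G stops, so it does not set the members apart. The unstressed library also had the fewest listed stops of the 4, 12999691, and how far this lowered E there was not tested.

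The in vivo folding score places E in cells on the scale from E in Li+ (0) to E in K+ (1). It was formed for the 27 members, in 22 regions of 20 genes, that had an E in K+ at least 2-fold that in Li+, were listed in both, and lay on transcripts past the minimum in the 4 DMS libraries. The median score was -0.17 (-0.42 to -0.02) in unstressed cells and 0.36 (0.06 to 0.70) in starved cells. With E relative to G and U both intervals held 0, at -0.06 (-0.43 to 0.18) and 0.27 (-0.04 to 0.37), as they did with the libraries scaled to strong G stops under 1.5-fold apart without DMS, at -0.19 (-0.47 to 0.01) and 0.18 (-0.01 to 0.44). The unstressed interval also held 0 with the deposited ratio (-0.44 to 0.05), with unlisted stops counted as 2 (-0.20 to 0.01) and over the 19 members listed in both cell libraries (-0.20 to 0.05). Below 0 were 21 of 27 in unstressed and 4 in starved cells, and above 0.5 were 3 and 9. A rise of at least 0.25 was seen in 19 (70.4%, 49.8 to 86.2%) and a fall of that size in 1, the stop at nt 927 of SDHC. By the same rule a rise was seen in 84.2% of 38 stops with runs of 2 G, in 100.0% of 16 strong G stops under 2-fold without DMS and in 69.3% of 150 strong G stops of all kinds, and a fall in 0.0, 0.0 and 2.0% of them. With E relative to G and U stops a rise was seen in 48.5% of 33 members. Values over 1, as for EEF2 (2.19 at nt 2917) and TRAPPC3 (2.81 at nt 1133) in starved cells, were above E in K+.

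Among the scored members with most counts, HNRNPK went from -0.17 to 0.77 and ERH, a small nuclear protein, from -0.31 to 0.06. The ERH stop had 42 and 233 counts in unstressed and starved cells, but its transcript was also more frequent among the stops, with 13.1 and 36.3 listed per nucleotide, so that E was 3.20 and 6.42. SUPT4H1, a transcription elongation factor, went from -0.02 to 0.38 with 32 and 109 counts. LAPTM4A, a lysosomal membrane protein, went from -0.16 to 0.70 with 12 and 98 counts. In unstressed cells 8 of the 27 were not listed, and their scores there rest on fewer than 3 counts.

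**Figure D5:**
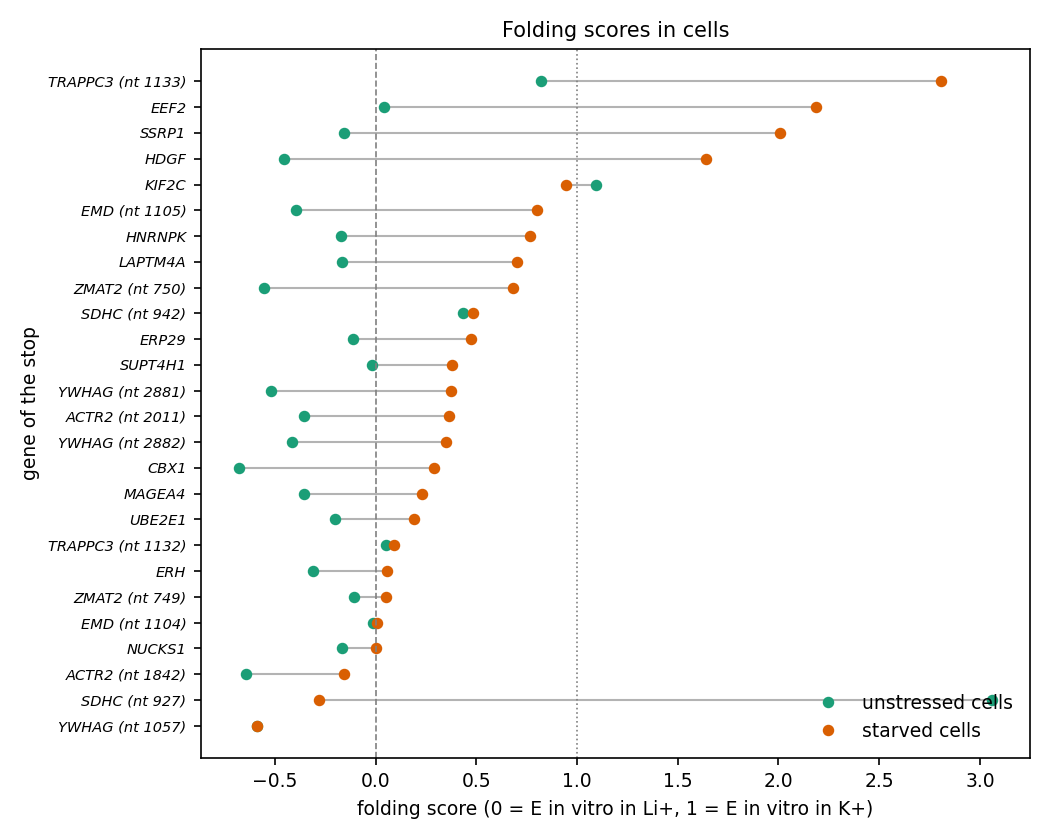
Folding score of 26 of the 27 members in unstressed and starved cells, by gene and ordered by the score in starved cells, where 0 is E in vitro in Li+ and 1 is E in vitro in K+. The medians over all 27 are -0.17 and 0.36, and the stop at nt 927 of SDHC is the 1 with a fall of at least 0.25.

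Several regions in 1 UTR were found in few genes. ERF, an ETS-domain repressor, and CADM4, a cell adhesion molecule, held 17 members each, in 6 and 4 regions, and U2AF2, a splicing factor, 14 in 3 regions. The strongest ERF stop had 313 and 10 counts without DMS, 10 and 13 in vitro, and 4 and 12 in cells. The strongest CADM4 stop had 381 and 39 counts without DMS, 15 and 18 in vitro, and none listed and 15 in cells. The third, U2AF2, had 307 and 50, 4 and 9, and none listed and 5. Relative to the transcript mean, the fold of E for K+ over Li+ was 1.11 in ERF and 1.09 in CADM4, whose transcripts were under the minimum in vitro in K+, and 0.615 in U2AF2. LSM14B, with 9 members in 2 regions, had 583 and 26 counts without DMS, 52 and 20 in vitro and 5 and 23 in cells, a fold in vitro of 3.83 (2.25 to 6.78), and its transcript, at 0.706 listed stops per nucleotide in vitro in K+, was under the minimum and not among the 443.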

How the data were processed

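RT stops were profiled in 6 U2OS libraries, 1 per condition. The authors' counts come from reads that matched a single transcriptome position exactly, with PCR copies counted once. The submitters' processing notes name Bowtie and hg19. The deposited stop counts are listed for nucleotides with at least 3 stops, and the deposited ratio is the count over the mean of the same base in the transcript. Nucleotides not listed were taken as 0.

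E was calculated from the deposited counts as count times transcript length, taken as the largest listed position, over the listed sum. The rule needed at least 1 listed stop per nucleotide in both libraries without DMS (2723 of 15739 transcripts), and each DMS comparison needed it in both libraries compared. Of the 2723, 2648 (97.2%) were assigned to GENCODE release 44 on GRCh37 from the bases in the files, where 15 or more bases were listed, 80% or more of these could be compared and 97% or more of those compared were identical, and 2702 had a gene symbol in the RefSeq table. Changes used a pseudocount of 1 E, which understates those of weak stops. Shares have exact Clopper-Pearson, medians order-statistic and folds exact conditional binomial 95% intervals. No test was made between conditions, since each was 1 library. Members and gene lists were chosen with earlier results of these data known. Named were members in genes the study followed up, the highest E, the most counts, the largest differences with at least 20 counts, the stops next to each threshold and the genes with most members; LMNA, LMNB2, SUPT4H1, LAPTM4A, TRAPPC3 and the second EEF2 stop were chosen after their values were seen. Some named members and sequences are not reported here. The scripts were tested on simulated data. Scripts ran in Python 3.11.15 with scipy 1.17.1, pandas 2.3.3, numpy 2.4.6 and, for figures, matplotlib 3.10.9.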

Additional observations from a re-analysis of the deposited data

How the results depend on the processing

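In total 18 alternatives were set with the design and 3 added after seeing the data. Using the library labelled K+ as the strong one left 5 members, of which 2 could be compared in vitro, with 0% at least 2-fold higher in K+ and a median of -0.11, the one result that reversed. With 1 stop per region there were 245 members, with 36.9% at least 2-fold higher in K+ and a median of 0.63. A minimum of 2 without DMS left 375 members. The K+ over Li+ median was 0.30 with an E of at least 5, and 0.53 (26.5% at least 2-fold) with an E of at least 20. It was 0.29 (16.4%) with a minimum of 2 in the DMS libraries, 0.56 (29.6%) relative to G and U, 0.54 (27.4%) with at least 10 counts at the stop, and 0.30 with the mean that includes unlisted stops. With a pseudocount of 2, 18.3% were at least 2-fold higher. The starved over unstressed median was 0.83 (44.1%) with the deposited ratio, 0.74 (39.2%) relative to G and U, 0.70 (37.1%) scaled to steady G stops, 1.00 (49.7%) with unlisted stops counted as 2, and 0.97 (48.3%) with a pseudocount of 2. It was 1.51 with a minimum of 0.25 in the DMS libraries, 1.52 with a pseudocount of 0.5, 1.58 (73.9%) with the deeper library thinned and 1.76 (77.6%) with at least 10 counts at the stop. The alternative with at least 10 counts, summed over the pair, replaced the transcript minimum in both comparisons. Stops could thus enter it through the library where they were high. The starved score, 0.36 as reported, was 0.70 (0.44 to 0.91) with the minimum of 0.25, 0.18 (-0.01 to 0.44) scaled to steady G stops, 0.23 with the deposited ratio, 0.23 with loops of 1 to 12 nt and 0.27 (-0.04 to 0.37) relative to G and U, and the share that rose was 100% of 10 with a minimum of 2 and 48.5% relative to G and U. The unstressed score, -0.17 as reported, was -0.41 with a 1.5-fold K+ over Li+ threshold, -0.32 with the mean that includes unlisted stops, -0.30 with the deeper library thinned and -0.06 (-0.43 to 0.18) relative to G and U, and it was below 0 in each alternative that gave a score. The cause of these changes was not tested. Beyond the reversed value, the direction of each median was kept in the alternatives run.

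No paired analysis was possible because each condition is 1 library. For the same reason none could be left out. Unlisted nucleotides have between 0 and 2 stops, so a member absent from a library can differ from 0 there, and the number of members with coverage in cells (143 of 661) limits what the cell comparison covers. The labels of the libraries without DMS leave the cation of the rule unsettled, but the libraries with DMS do not share this contradiction.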
